A study of Mus musculus with 8 samples.

Results

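Transcription factors of the early bipotential gonad are described here through 9 genes, Wt1, Nr5a1, Gata4, Zfpm2, Emx2, Lhx9, Cbx2, Six4 and Nr0b1. The members were chosen by name, and each is followed by all probe sets that the array annotation gives to it alone. That gave 19 probe sets of the 45037 tested, out of 18193 named genes. Lhx9 and Six4 had 4 probe sets each, Nr5a1, Gata4, Zfpm2 and Cbx2 had 2 each, and Wt1, Emx2 and Nr0b1 had 1 each. Transcripts were measured on 8 Affymetrix mouse arrays in 4 groups of 2: EGFP-positive cells sorted from XX gonads (called pre-granulosa cells in the labels), EGFP-positive cells sorted from XY gonads (called Sertoli cells), testes and ovaries taken whole. All samples came from embryos at embryonic day 13 of the strain C57BL6/J-Tg92, so the gonad groups carry the transgenic background too. About 30000 sorted cells made up each pre-granulosa sample and about 22000 each Sertoli sample, and 4 gonads were pooled in each ovary or testis sample. The labels name neither the promoter that drives EGFP nor the litters, so each p-value measures the spread between these samples, which may in part be technical. Values are log2 expression, in which 1 unit is a 2-fold change.

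The gonad forms as a thickening of the coelomic epithelium, alike in XX and XY embryos, and the 9 members are known from this stage. Wt1 and Nr5a1 are needed for the ridge to survive, Gata4 for it to thicken, and Emx2 and Lhx9 for its epithelium to grow, since mice that lack any of these genes fail to form gonads. Six4 is a homeobox factor, Cbx2 reads Polycomb marks on chromatin, Zfpm2 (also called FOG2) binds Gata4, and Nr0b1 (also called DAX1) is an X-linked nuclear receptor that represses Nr5a1. After the sexes part, several of these factors act in Sertoli cells, granulosa cells or the interstitium.

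Sequence before the start site is shown for Emx2, whose XY arrays read below its XX arrays in cells and in organs without a call in either (adjusted p = 0.0196 and 0.679), and which has an entry at its annotated gene start. The RefSeq promoter table of mouse build GRCm38.p6 matched 4 of the 9 members, Emx2, Lhx9, Six4 and Nr0b1. The 250 bases before the Emx2 start lie at chr19:59458440-59458689 on the plus strand, with CpG dinucleotides in capitals.
Emx2: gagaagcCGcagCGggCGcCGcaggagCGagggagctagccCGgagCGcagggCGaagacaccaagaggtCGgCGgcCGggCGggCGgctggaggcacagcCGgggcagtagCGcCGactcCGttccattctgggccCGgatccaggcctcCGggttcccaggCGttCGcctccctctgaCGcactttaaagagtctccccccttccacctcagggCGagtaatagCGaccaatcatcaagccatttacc
This stretch holds 24 CpG dinucleotides, against a median of 6 over the 32851 stretches of the table, of which 12.0% have as many. The motif AAGGTCA, of the type that Nr5a1 binds, was sought on both strands and is not in it, while 4.08% of the stretches hold it. The motif AGATAA, which factors of the Gata4 family bind, is not in it either (9.99% of the stretches). The TATA box motif TATAAA is likewise not among its letters (12.4% of the stretches). This says only that these letters are not in this window. Of the other entries, Nr0b1 holds TATAAA in the same window.

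The sorted cells carried the markers of their labels. Over 12 measured Sertoli markers the mean log2 level per array was 10.76 to 10.89 in Sertoli cells and 6.47 to 7.53 in pre-granulosa cells, and over 9 pre-granulosa markers it was 5.56 to 5.94 and 9.84 to 10.33. Germ cell markers (9 measured) lay at 4.61 to 5.01 in both sorted types against 9.02 to 9.27 in gonads, and 5 of the 9 were at or under the background level of 4.78 in each sorted type. That level is the highest reading, in XX arrays, of 9 probe sets that read Uty, Kdm5d and Eif2s3y, which XX cells lack. Interstitial and steroidogenic markers (8 measured) lay at 7.32 to 7.59 in pre-granulosa cells, 8.45 to 9.02 in Sertoli cells, 8.46 to 8.60 in ovaries and 11.34 to 11.43 in testes. Macrophage markers (7 measured) lay at 5.63 and 6.95 on the Sertoli arrays and at 4.63 and 4.74 on the pre-granulosa arrays. The array of pre-granulosa replicate 1 read the 3' ends of control transcripts furthest above their 5' ends, a sign of shorter RNA, by 3.08 (actin) and 3.68 (Gapdh) on the log2 scale. The 7 other arrays gave 1.57 to 2.51 and 0.72 to 2.69.

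**Figure D1:**
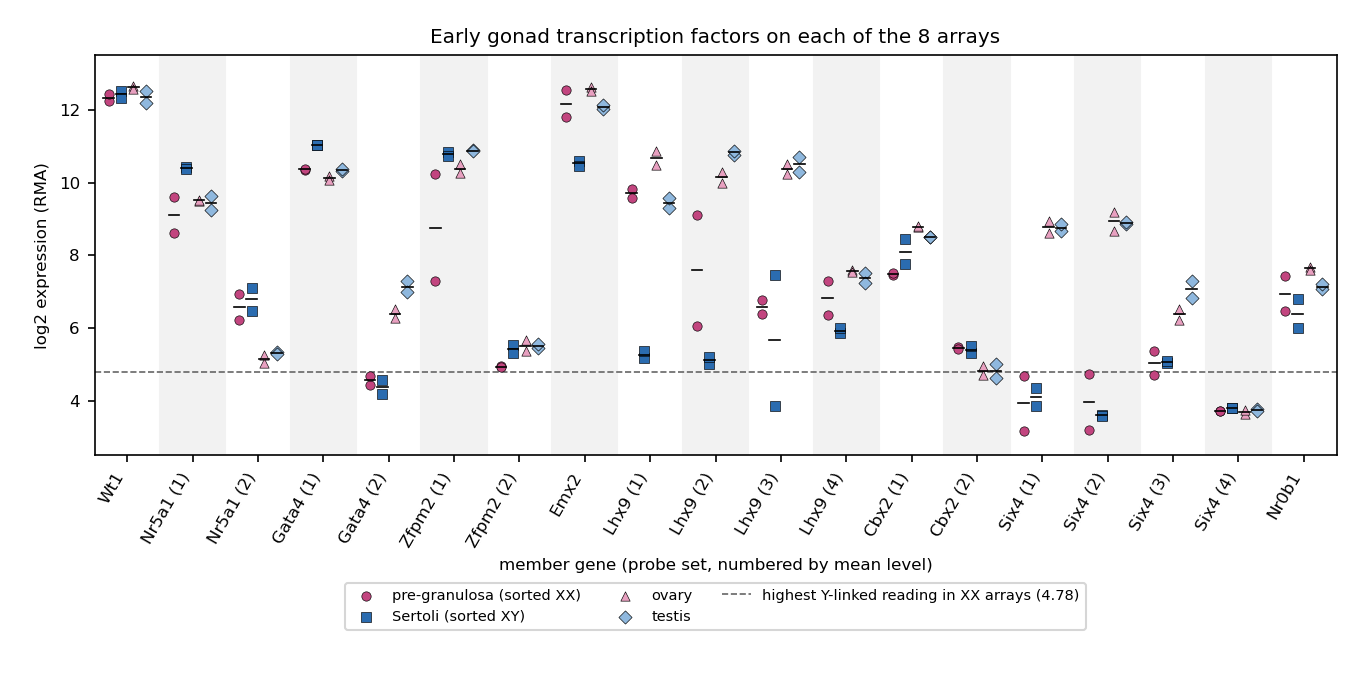
Log2 expression of the 19 probe sets of the 9 genes on each of the 8 arrays, with 2 arrays per group, short black lines at the group means, and a dashed line at the background level of 4.78. Lhx9 (1) reads 5.18 and 5.36 in Sertoli cells and 9.31 or more elsewhere, while Six4 (1) and Six4 (2) are at or under the dashed line in all sorted-cell arrays and at 8.61 or more in gonads.

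The first question is which early gonad factors differ between XY and XX supporting cells. Lhx9 was the member that fell, being lower in Sertoli cells by 21.6-fold on its brightest probe set. Its Sertoli readings there, 5.18 and 5.36, were near the background level of 4.78, so the size of this fold is uncertain. The other 18 probe sets were not called, so that 1 of 19 passed an adjusted p of 0.01 in limma, against 1.81% of all probe sets (0.999% higher and 0.813% lower). Unadjusted p was under 0.05 for 8 of the 19 and for 8532 of all 45037. In 10 of 19 the Sertoli and pre-granulosa arrays did not overlap, 6 higher and 4 lower in Sertoli cells, against 41.4% of all probe sets (20.9% higher and 20.5% lower). The median difference over the 19 was 0.03, against 0.01 over all probe sets. Between whole organs, testis minus ovary, limma called 0 of 19 against 0.215% of all (0.155% higher and 0.06% lower), with 3 of 19 and 4192 of all 45037 at an unadjusted p under 0.05. The arrays of testis and ovary did not overlap in 12 of 19, 6 higher and 6 lower in testes, against 50% of all probe sets (23% higher and 27% lower).

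**Figure D2:**
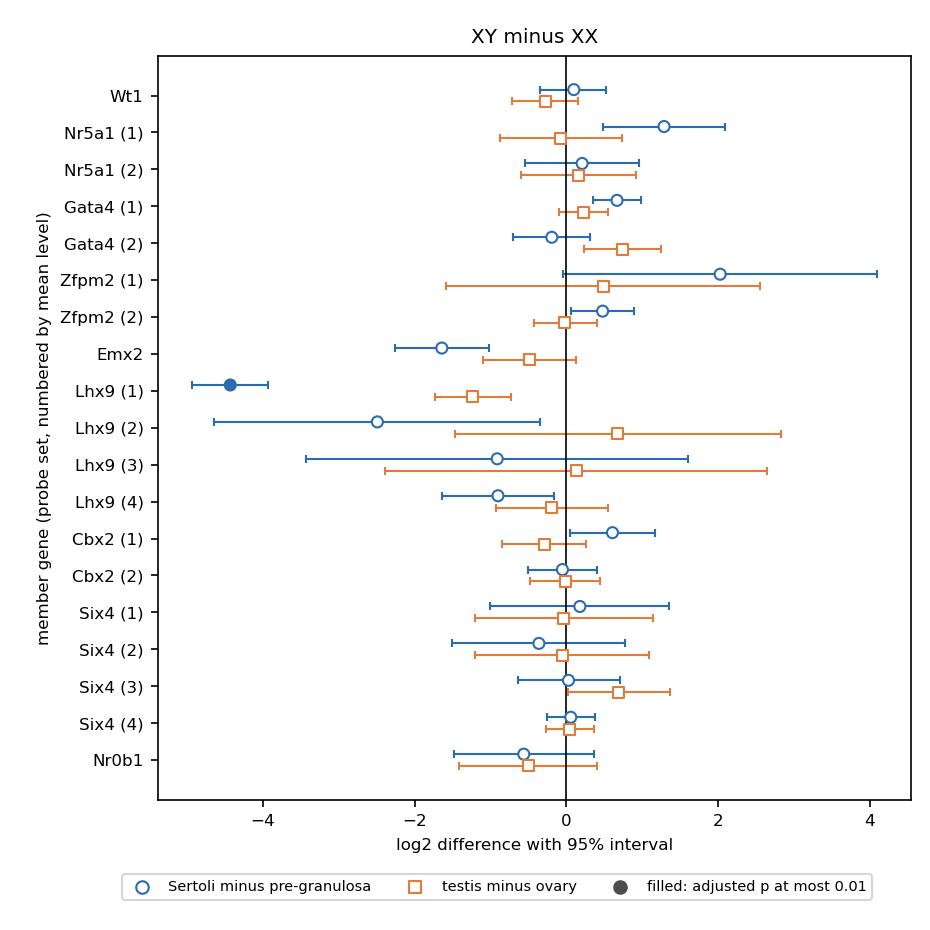
XY minus XX log2 differences of the 19 probe sets in sorted cells (circles) and whole gonads (squares), with 95% intervals from limma and filled symbols where the adjusted p was at most 0.01. Lhx9 (1) in sorted cells, at -4.43, is the filled symbol, and Zfpm2 (1) and Lhx9 (2) and (3) have the widest intervals.

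Lhx9, a LIM homeobox factor, was read by 4 probe sets, numbered here by their mean level. The first, 1419324_at, read 9.83 and 9.57 in pre-granulosa cells, 5.18 and 5.36 in Sertoli cells, 10.87 and 10.48 in ovaries and 9.31 and 9.58 in testes. Sertoli cells were thus far under every other group, and ovaries were above testes without overlap. Sertoli minus pre-granulosa was -4.43 ± 0.21 (log2 difference ± SE, n = 2 against 2, adjusted p = 8.69e-04). Without each of the 8 arrays in turn the difference stayed between -4.56 and -4.3. The call was lost with no moderation and with only the 4 sorted arrays. Testis minus ovary was -1.23 ± 0.21 and not called (adjusted p = 0.0838). The difference between these differences was -3.20 ± 0.29 (adjusted p = 0.0345), which was not called either.

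The other Lhx9 probe sets did not all follow the first. Lhx9 (2), 1429905_at, read 6.06 and 9.12 in pre-granulosa cells, 5.0 and 5.21 in Sertoli cells, 10.30 and 9.99 in ovaries and 10.77 and 10.88 in testes. Its pre-granulosa arrays lay 3.06 apart, a gap that 0.426% of all probe sets reached, and the low reading came from replicate 1, the array with the largest 3' excess. Sertoli minus pre-granulosa was -2.49 ± 0.89 (adjusted p = 0.199) with that array, -4.02 ± 0.20 (adjusted p = 0.00339) without it and -0.95 ± 0.20 (adjusted p = 0.0441) without replicate 2. In gonads its order was turned, with testes above ovaries by 0.68 ± 0.89 (adjusted p = 0.954). This SE is pooled over all 4 groups, so it includes the gap of 3.06 between the pre-granulosa arrays.

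Lhx9 (3), 1441313_x_at, read 6.38 and 6.77 in pre-granulosa cells, 3.87 and 7.45 in Sertoli cells, 10.50 and 10.23 in ovaries and 10.30 and 10.69 in testes. Its Sertoli arrays lay 3.58 apart, which 0.118% of all probe sets reached, so the 2 sorted types overlapped, with a difference of -0.91 ± 1.04 (adjusted p = 0.731). Lhx9 (4), 1431598_a_at, read 5.86 and 6.0 in Sertoli cells and between 6.36 and 7.60 on the 6 other arrays. Its Sertoli minus pre-granulosa difference was -0.90 ± 0.31 (adjusted p = 0.179). All 4 probe sets had negative Sertoli minus pre-granulosa differences, and in gonads 2 were negative and 2 positive, so the order of testis and ovary depended on the probe set.

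Emx2, a homeobox factor of the coelomic epithelium and the urogenital ducts, followed the order of Lhx9 (1) in part, with smaller gaps. Its ovary and pre-granulosa arrays overlapped. Emx2 read 11.79 and 12.54 in pre-granulosa cells, 10.60 and 10.46 in Sertoli cells, 12.62 and 12.51 in ovaries and 12.03 and 12.13 in testes. Sertoli cells were the lowest group, and XY was below XX without overlap in cells and in organs. Sertoli minus pre-granulosa was -1.64 ± 0.25 (95% interval -2.26 to -1.02, adjusted p = 0.0196), which missed the threshold. Without pre-granulosa replicate 1 the difference was -2.02 ± 0.16, and without replicate 2 it was -1.26 ± 0.16. Without Sertoli replicate 1 or 2 it was -1.71 or -1.57. Testis minus ovary was -0.49 ± 0.25 (adjusted p = 0.679). Markers of mesonephros and duct, which also express Emx2, lay at 6.68 to 6.80 per array in pre-granulosa cells (6 measured) and 5.93 to 6.35 in Sertoli cells. They lay at 6.96 to 7.01 in ovaries and 6.25 to 6.26 in testes, so the list mean was lower in XY here too. The single genes went both ways, and 0 were called. Their median difference was 0.04 in Sertoli minus pre-granulosa (-4.1 to 0.95) and -0.17 in testis minus ovary (-4.29 to 1.43). The part of these markers in the Emx2 values was not tested.

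Nr5a1, the nuclear receptor also called SF1, had its highest readings in Sertoli cells. Nr5a1 (1), 1418315_at, read 9.61 and 8.61 in pre-granulosa cells, 10.44 and 10.36 in Sertoli cells, 9.50 and 9.51 in ovaries and 9.25 and 9.62 in testes. The sorted types did not overlap, whereas ovaries lay within the range of testes. Sertoli minus pre-granulosa was 1.29 ± 0.33 (95% interval 0.49 to 2.09, adjusted p = 0.0876), not called, and testis minus ovary was -0.07 ± 0.33 (adjusted p = 1.00). Nr5a1 (2), 1421730_at, read 6.95 and 6.21 in pre-granulosa cells against 7.11 and 6.48 in Sertoli cells, which overlapped. Without pre-granulosa replicate 1 the difference of Nr5a1 (1) was 1.79 ± 0.20 (adjusted p = 0.0107), and without replicate 2 it was 0.79 ± 0.20 (adjusted p = 0.0726).

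Gata4, a zinc finger factor of gonadal somatic cells, had a small excess in Sertoli cells with close replicates on the brighter of its 2 probe sets. Gata4 (1), 1418863_at, read 10.34 and 10.37 in pre-granulosa cells, 11.03 on both Sertoli arrays, 10.18 and 10.06 in ovaries and 10.33 and 10.37 in testes. The Sertoli minus pre-granulosa difference was 0.67 ± 0.13 (95% interval 0.35 to 0.99, adjusted p = 0.0417), and testis minus ovary was 0.23 ± 0.13 (adjusted p = 0.732). On this probe set XY was above XX without overlap in cells and organs, and neither difference was called. On Gata4 (2) the sorted types overlapped, all at or under background (-0.19 ± 0.21, adjusted p = 0.723). Testes were above ovaries on it without overlap, by 0.74 ± 0.21 (adjusted p = 0.296), not called. Its cofactor Zfpm2 was dominated by the gap between the pre-granulosa arrays. Zfpm2 (1), 1449314_at, read 7.28 and 10.24 there, 10.83 and 10.74 in Sertoli cells, 10.50 and 10.27 in ovaries and 10.90 and 10.86 in testes. The low value again came from pre-granulosa replicate 1, and 0.502% of all probe sets had a gap as large as these 2.96 units. Sertoli minus pre-granulosa was 2.03 ± 0.85 (adjusted p = 0.274), and it was 0.55 ± 0.17 (adjusted p = 0.131) without that array and 3.51 ± 0.17 (adjusted p = 0.00171) without replicate 2. Zfpm2 (2), 1419012_at, stayed between 4.92 and 5.68 on all arrays.

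**Figure D3:**
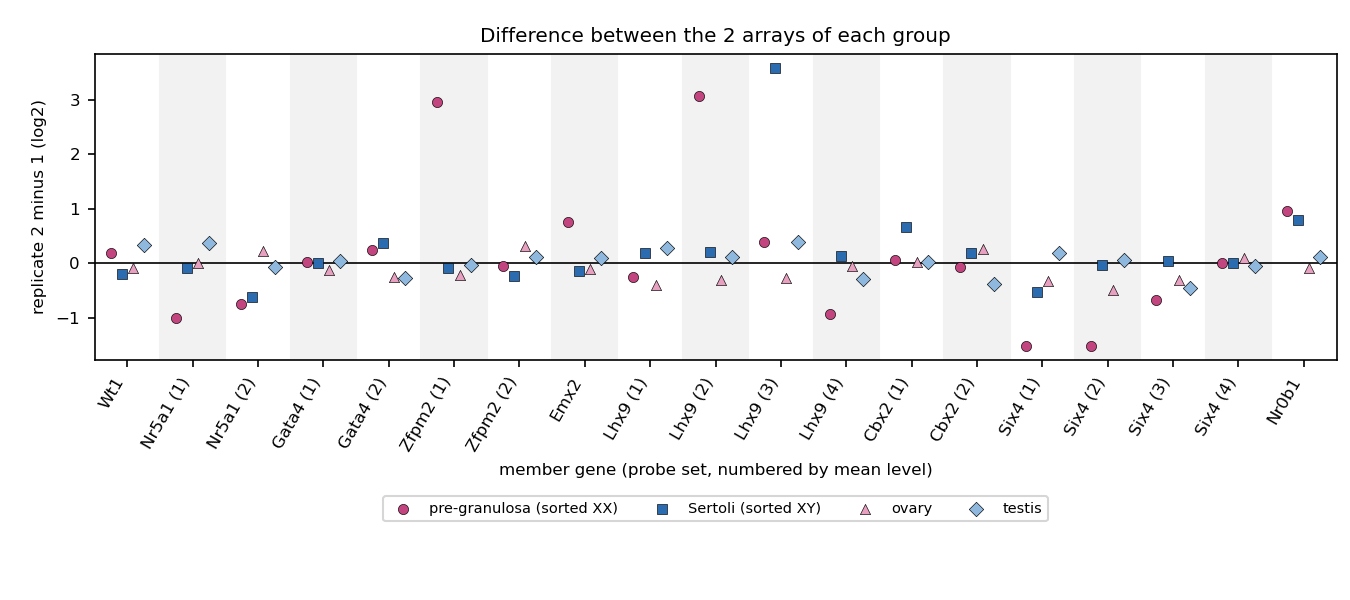
Replicate 2 minus replicate 1 (log2) for the 19 probe sets in each of the 4 groups. Zfpm2 (1) at 2.96 and Lhx9 (2) at 3.06 in pre-granulosa cells and Lhx9 (3) at 3.58 in Sertoli cells stand apart, while the gonad groups stay within 0.51 of 0.

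Wt1, the zinc finger factor of the gonad and kidney, stayed between 12.18 and 12.66 on all 8 arrays. Its probe set, 1425995_s_at, read 12.24 and 12.42 in pre-granulosa cells, 12.52 and 12.32 in Sertoli cells, 12.66 and 12.58 in ovaries and 12.18 and 12.52 in testes. The sorted types overlapped, and Sertoli minus pre-granulosa was 0.10 ± 0.18 with a 95% interval from -0.34 to 0.53 (adjusted p = 0.854). Testis minus ovary was -0.27 ± 0.18, with an interval from -0.71 to 0.16 (adjusted p = 0.785). Differences beyond these limits lie outside the intervals, and smaller ones could not be told from the spread of the arrays.

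Nr0b1, which antagonises Nr5a1, was not called in any comparison. Its probe set, 1417760_at, read 6.47 and 7.42 in pre-granulosa cells, 5.99 and 6.79 in Sertoli cells, 7.69 and 7.60 in ovaries and 7.08 and 7.20 in testes. Ovaries were above testes without overlap, by 0.50 ± 0.38 (adjusted p = 0.834), while the sorted types overlapped, with Sertoli minus pre-granulosa at -0.56 ± 0.38 (adjusted p = 0.519). Cbx2 (1), 1434116_at, read 7.46 and 7.52 in pre-granulosa cells, 7.76 and 8.44 in Sertoli cells, 8.78 and 8.81 in ovaries and 8.49 and 8.51 in testes. XY was above XX in the sorted cells, by 0.61 ± 0.23 (adjusted p = 0.224), and below XX in the organs, by -0.29 ± 0.23 (adjusted p = 0.844). Cbx2 (2), 1422059_at, stayed between 4.63 and 5.50 on all arrays.

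The next question is how supporting cells compare with the whole organ of the same sex. Six4 was lower in the sorted cells of both sexes and Lhx9 in those of XY, and in XY the probe sets of Gata4 moved in opposite directions. In Sertoli minus testis limma called 5 of 19 probe sets (lower for Lhx9, 2 of Six4 and 1 of Gata4, higher for 1 of Gata4), against 6.7% of all (2.97% higher and 3.73% lower). In pre-granulosa minus ovary it called 3 of 19 (2 of Six4 and 1 of Gata4, all lower), against 5.51% (2.43% higher and 3.08% lower). The arrays of Sertoli cells and testes did not overlap in 17 of 19 (8 higher and 9 lower), against 74.8% of all (46.8% higher and 28% lower). Those of pre-granulosa cells and ovaries did not overlap in 13 (4 higher and 9 lower), against 66.3% (39.9% higher and 26.4% lower). These counts ranged from 0 to 11 and from 0 to 5 when each array was left out in turn, with 0 in Sertoli minus testis without either testis array and 0 in pre-granulosa minus ovary without any 1 of the 4 gonad arrays. The ranked values of the sorted and the gonad arrays point to separate normalization, with medians 0.389 apart, so these differences were taken after subtracting the median of each array. Median differences over the 19 probe sets were -0.35 and -0.36, against 0.19 and 0.13 over all. Whole gonads hold many cell types, and fewer cells of a type cannot be told apart here from less RNA per cell. In addition both comparisons share arrays with those between the sexes.

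**Figure D4:**
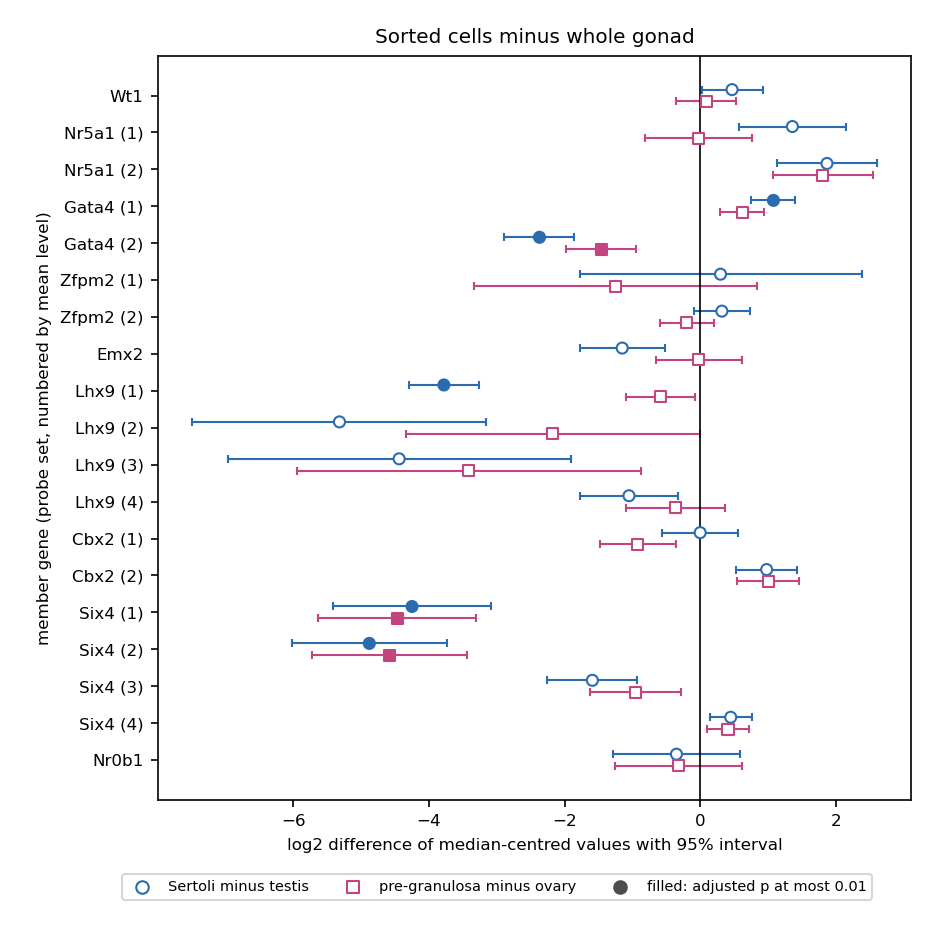
Sorted cells minus the whole gonad of the same sex, as log2 differences of median-centred values with 95% intervals, for Sertoli minus testis (circles) and pre-granulosa minus ovary (squares), filled where the adjusted p was at most 0.01. Six4 (1) and (2) lie between -4.25 and -4.88 in both sexes, while Lhx9 (1) lies at -3.78 in XY and -0.59 in XX.

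Six4, a homeobox factor that acts with Eya proteins, was lower in the sorted cells of both sexes on its brightest probe sets. Six4 (1), 1456862_at, read 4.68 and 3.17 in pre-granulosa cells, 4.36 and 3.85 in Sertoli cells, 8.95 and 8.61 in ovaries and 8.66 and 8.85 in testes. Six4 (2), 1439753_x_at, read 4.73 and 3.21, 3.62 and 3.59, 9.19 and 8.68, and 8.85 and 8.91 in the same order. The 4 sorted-cell arrays were at or under the background level for these probe sets, and the gonad arrays of the sexes overlapped. Six4 (1) differed by -4.25 ± 0.48 in Sertoli minus testis (adjusted p = 0.00427) and by -4.47 ± 0.48 in pre-granulosa minus ovary (adjusted p = 0.00395). Six4 (2) differed by -4.88 ± 0.47 (adjusted p = 0.00283) and -4.58 ± 0.47 (adjusted p = 0.00359). The Six4 (1) calls were lost without any 1 of the Sertoli, ovary or testis arrays in XY (adjusted p = 0.0136 to 0.0439) and without any 1 of the gonad arrays in XX (0.0171 to 0.0327). Those of Six4 (2) were lost without a Sertoli or testis array in XY (0.0152 to 0.0341) and without a gonad array in XX (0.0162 to 0.0298), and over all 8 omissions the differences of both probe sets stayed at -3.72 or below. Set against background, the excess of Six4 (1) in testes over Sertoli cells was at least 11.9-fold, and that in ovaries over pre-granulosa cells at least 12.2-fold.

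The remaining Six4 probe sets gave smaller values. Six4 (3), 1425767_a_at, read 5.05 and 5.10 in Sertoli cells and 7.30 and 6.84 in testes, a difference of -1.59 ± 0.27 (adjusted p = 0.0124, and 0.00585 without either pre-granulosa array), and 5.38 and 4.71 in pre-granulosa cells against 6.53 and 6.22 in ovaries (-0.95 ± 0.27, adjusted p = 0.0545). Six4 (4), 1427701_a_at, stayed between 3.65 and 3.8 on all arrays and was under background throughout, so it gives no information. Between the sexes Six4 (1) differed by 0.18 ± 0.48 in sorted cells and by -0.03 ± 0.48 in gonads (adjusted p = 0.912 and 1.00). Beside the germ cell list, other marker lists had lower mean levels, as deposited and not centred, in both sorted types than in gonads. These included the coelomic epithelium list (5.89 to 6.29 against 7.24 to 8.02, 8 measured), the endothelial list (4.90 to 6.40 against 7.44 to 7.77, 7 measured) and the erythroid list (6.11 to 6.79 against 8.99 to 9.34, 5 measured). Single coelomic genes went both ways, with centred differences of -3.25 to 1.96 against testes and -4.57 to 1.31 against ovaries. The part of these lists in the Six4 difference was not tested.

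Lhx9 was called lower than in the organ on 1 probe set in XY and on 0 in XX. On Lhx9 (1), Sertoli cells were 13.7-fold below testes (-3.78 ± 0.21, adjusted p = 9.04e-04), and pre-granulosa cells differed from ovaries by -0.59 ± 0.21 (adjusted p = 0.0920). The size of the XY fold is uncertain, since the Sertoli readings were near background. The XY call was lost without testis replicate 1 (-3.92, adjusted p = 0.0169) or 2 (-3.63, adjusted p = 0.0182). After centring, the order was ovary, pre-granulosa, testis and Sertoli, with gaps of 0.59, 0.62 and 3.78 and no overlap between neighbours. The other Lhx9 probe sets were also lower in Sertoli cells than in testes, by -5.32 ± 0.89, -4.44 ± 1.04 and -1.05 ± 0.30 (adjusted p = 0.0115, 0.0289 and 0.0484), none of them called. In pre-granulosa minus ovary Lhx9 (2) stood at -2.18 ± 0.89 (adjusted p = 0.126), Lhx9 (3) at -3.41 ± 1.04 (adjusted p = 0.0627) and Lhx9 (4) at -0.36 ± 0.30 (adjusted p = 0.411), so the size of the XX gap depended on the probe set. Lhx9 (2) was called there without pre-granulosa replicate 2 (-3.72, adjusted p = 0.00161) and was at -0.63 (adjusted p = 0.0932) without replicate 1, and Lhx9 (3) was called without either Sertoli array (-3.41, adjusted p = 0.00386). In Sertoli minus testis Lhx9 (2) and (4) were called without either pre-granulosa array (adjusted p = 0.00111 and 0.00784), and Lhx9 (3) without Sertoli replicate 2 (-6.23, adjusted p = 0.00421). Interstitial and steroidogenic markers were higher in testes than in Sertoli samples (11.34 to 11.43 against 8.45 to 9.02), and their part in this difference was not tested.

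The probe sets of Gata4 disagreed. Gata4 (1) was higher in Sertoli cells than in testes, by 1.08 ± 0.13 (adjusted p = 0.00531), and in pre-granulosa cells than in ovaries by 0.62 ± 0.13 (adjusted p = 0.0256, not called). Gata4 (2), 1418864_at, read 4.44 and 4.68 in pre-granulosa cells, 4.19 and 4.56 in Sertoli cells, 6.53 and 6.27 in ovaries and 7.28 and 7.0 in testes. It was lower in the sorted cells, by -2.37 ± 0.21 in XY (adjusted p = 0.00239) and -1.46 ± 0.21 in XX (adjusted p = 0.00852), with all sorted arrays under background, so that the excess in testes was at least 3.89-fold and that in ovaries at least 2.36-fold. The call of Gata4 (1) was lost without any 1 of the Sertoli, ovary or testis arrays (adjusted p = 0.0148 to 0.0560). On values as deposited, with no centring, it was lost too, at 0.68 ± 0.13 (adjusted p = 0.0160), as it was with the probe sets above the median mean (0.0105) and with only the arrays compared (0.0127). In all, 10 of 18 alternatives ended this call, and 13 of 17 that of Gata4 (2) in XX. That of Gata4 (2) was lost in XY without Sertoli replicate 1 or either testis array (0.0112 to 0.0313), and in XX without any 1 of the 8 arrays (0.0113 to 0.0547). On the mean of both probe sets Sertoli minus testis was -0.65 ± 0.15 (adjusted p = 0.0226), so no direction for Gata4 as a gene is given. The 3' excess was 2.17 and 2.51 for actin on the Sertoli arrays against 1.57 and 1.96 on the testis arrays, and its part was not tested.

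Among the other members, Nr5a1 was higher in Sertoli cells than in testes on both probe sets, by 1.36 ± 0.33 and 1.87 ± 0.30 (adjusted p = 0.0306 and 0.0105), without a call. Both were called without either pre-granulosa array (adjusted p = 0.00531 and 0.00508). In pre-granulosa minus ovary Nr5a1 (1) stood at -0.02 ± 0.33 and Nr5a1 (2) at 1.81 ± 0.30 (adjusted p = 0.973 and 0.0127), the latter called without pre-granulosa replicate 2 (2.17, adjusted p = 0.00717). Emx2 stood at -1.15 ± 0.26 in Sertoli minus testis (adjusted p = 0.0258, and 0.00461 without either pre-granulosa array) and differed by -0.02 ± 0.26 in XX (adjusted p = 0.967). Wt1 differed by 0.47 ± 0.18 and 0.09 ± 0.18 (adjusted p = 0.101 and 0.754). Cbx2 (1) differed by 0.00 ± 0.23 in XY and by -0.92 ± 0.23 in XX (adjusted p = 0.999 and 0.0382). Cbx2 (2) stood at 0.98 ± 0.19 and 1.01 ± 0.19 (adjusted p = 0.0160 and 0.0166), so the probe sets disagreed. However, Cbx2 (2) read 4.63 to 5.50, near the background of 4.78, and centring widened its differences. As deposited its means were 5.41 in Sertoli cells and 4.82 in testes, and 5.46 in pre-granulosa cells and 4.83 in ovaries. Nr0b1 differed by -0.35 ± 0.38 and -0.32 ± 0.38 (adjusted p = 0.513 and 0.568). Zfpm2 (1) differed by 0.3 ± 0.86 in XY and by -1.25 ± 0.86 in XX (adjusted p = 0.81 and 0.32). For Zfpm2 (2) the values were 0.32 ± 0.17 and -0.2 ± 0.17 (adjusted p = 0.198 and 0.423).

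The last question is whether the XY minus XX difference in supporting cells departs from that in the organs. Limma called 0 of 19 probe sets for this difference of differences, against 0% of all, with 6 of 19 and 5142 of all 45037 at an unadjusted p under 0.05. Lhx9 (1), at -3.20, came nearest. Nr5a1 (1) stood at 1.36 ± 0.47 (adjusted p = 0.343) and Emx2 at -1.15 ± 0.36 (adjusted p = 0.297).

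Other genes of the pathway were read by the probe set of highest mean for each gene. Of 17 measured genes that also act in the early gonad, 0 rose and 2 fell in the Sertoli minus pre-granulosa comparison, where 2.67% of all genes were called (1.62% higher and 1.05% lower). These were Podxl, a sialomucin and Wt1 target, at -2.35 ± 0.19 (adjusted p = 0.00271), and Kdm3a, a histone demethylase that acts on Sry, at -1.65 ± 0.18 (adjusted p = 0.00674). Ctnnb1, the effector of Wnt signals, read 13.51 to 13.83 on all arrays and was not called. Between testis and ovary 0 of the 17 were called by limma, against 0.352% of all genes (0.236% higher and 0.115% lower). In Sertoli minus testis Tcf21, a factor of interstitial progenitors, was lower by -4.22 ± 0.33 and Igf1r, a growth factor receptor, by -2.85 ± 0.42 (2 of 17 called, against 6.87%, 2.47% higher and 4.4% lower). In pre-granulosa minus ovary Tcf21 was lower by -3.91 ± 0.33 and Znrf3, which removes Wnt receptors, by -3.52 ± 0.51 (2 of 17, against 5.4%, 1.29% higher and 4.11% lower). Leaving out each array in turn moved these counts between 0 and 3 in Sertoli minus pre-granulosa (0 without any gonad array, 1 without either Sertoli array), between 0 and 5 in Sertoli minus testis (0 without either testis array, 1 without a Sertoli or ovary array, 5 without either pre-granulosa array), and between 0 and 3 in pre-granulosa minus ovary (0 without any gonad array, 1 without either Sertoli array).

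Described targets of Nr5a1, Gata4 and Wt1 (12 measured) were higher on the XY side where called. In Sertoli minus pre-granulosa 2 were higher and 0 lower, against 1.62% and 1.05% of all genes. These were Amh, the hormone that removes the Müllerian ducts, at 2.77 ± 0.17 and Vnn1, a pantetheinase, at 2.71 ± 0.22. In testis minus ovary 3 were higher and 0 lower, against 0.236% and 0.115% of all genes. They were Cyp17a1 (6.07 ± 0.47), Cyp11a1 (5.61 ± 0.47) and Hsd3b1 (3.28 ± 0.21), which make steroids in fetal Leydig cells. The median over the 12 was 1.51 and 2.42 in these comparisons, against 0.04 and -0.04 over all genes. In Sertoli minus testis Amhr2, the receptor for Amh, and Amh itself were higher (2.50 ± 0.26 and 1.45 ± 0.16). Hsd3b1 and Spry1 were lower (-1.57 ± 0.21 and -2.03 ± 0.16). Of all genes 2.47% were called higher and 4.4% lower in this comparison. In pre-granulosa minus ovary Spry1, an inhibitor of receptor tyrosine kinase signals, was the 1 called of 12, at -2.05 ± 0.16. The share of all genes called there was 5.4% (1.29% higher and 4.11% lower). Amh also stands in the Sertoli marker list, and Cyp17a1, Cyp11a1 and Hsd3b1 in the interstitial one. Without any 1 of the gonad arrays 0 targets were called in testis minus ovary. In Sertoli minus pre-granulosa 0 were called without Sertoli replicate 2, 4 without pre-granulosa replicate 2, and 1 without Sertoli replicate 1 or any gonad array. In Sertoli minus testis 0 were called without either testis array and 1 without a Sertoli or ovary array. In pre-granulosa minus ovary 0 were called without any gonad array and 2 without either pre-granulosa array.

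Of 18 measured relatives of the members, such as other members of the Gata, Lhx and Cbx families, limma called 0 in Sertoli minus pre-granulosa, testis minus ovary and Sertoli minus testis. Gata2 was lower in pre-granulosa cells than in ovaries by -3.33 ± 0.26 (adjusted p = 0.00199), the 1 called of 18, against 5.4% of all genes. Cbx6, another Polycomb reader, read 10.74 and 10.87 in pre-granulosa cells and 9.73 and 8.33 in Sertoli cells and was not called. Of 18 measured partner proteins, 0 were called between the sexes in cells or organs, against 2.67% and 0.352% of all genes. Ldb2, which bridges LIM factors such as Lhx9, was lower in both sorted types (-4.35 ± 0.30 against testes and -2.66 ± 0.30 against ovaries, adjusted p = 0.00130 and 0.00434). It was the 1 called of 18 in each, against 6.87% and 5.4% of all genes. Among the relatives, leaving out an ovary array left 0 called in pre-granulosa minus ovary, and leaving out pre-granulosa replicate 2 gave 2. For the partners 0 were called in Sertoli minus testis without either testis array (2 without either pre-granulosa array), and 0 in pre-granulosa minus ovary without any gonad array or pre-granulosa replicate 1 (2 without replicate 2). Of the relatives, 1 was called in Sertoli minus pre-granulosa without pre-granulosa replicate 1 or Sertoli replicate 1. In Sertoli minus testis 2 relatives were called without either pre-granulosa array and 1 without Sertoli replicate 1.

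Genes with the most similar profile were sought for the members with a called probe set, by Pearson correlation of median-centred values over the 8 arrays among 10128 genes that varied by at least 1 unit. For Lhx9 (1) they were Uri1 (0.991), Il17d (0.984) and Aprt (0.982). For Six4 (1) they were Crabp2 (0.998), Elavl2 (0.996) and Plekha6 (0.994), and for Gata4 (1) they were Reep2 (0.997), Nrbp2 (0.997) and Cst11 (0.991). These are descriptions of 8 arrays in 4 groups, chosen as the highest of many.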

How the data were processed

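Transcript levels were measured on 8 Affymetrix Mouse Genome 430v2.0 arrays, 2 for each of 4 groups, from about 20 ng of total RNA per sample, per the labels. The deposited values are log2 expression per probe set, made by the authors with RMA per the submitters' processing notes (no version). Ranked values agreed within 0.175 in the sorted-cell arrays and 0.146 in the gonad arrays, while the sets differed, so they may have been normalized apart, which can bias differences between them. Of 45101 probe sets, 64 controls were left out. A single gene symbol belonged to 34945, several to 932 and none to 9160, and the 9 member symbols matched the RefSeq gene table.

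For each probe set limma 3.58.1 (R 4.3.3) fitted the 8 arrays with a mean for each group (lmFit, eBayes, 4 residual degrees of freedom, two-sided, Benjamini-Hochberg over 45037 probe sets, called at an adjusted p of 0.01). A difference is said to be called where it passed this test. Values described as above, below or not overlapping need not be called. Sertoli minus testis and pre-granulosa minus ovary used values less the median of each array. Intervals are 95% intervals of the model. Each SE rests on 1 estimate of spread per probe set, shared by the 4 groups, although replicate spread differed between them. Root mean square SDs were 0.531 in pre-granulosa cells, 0.428 in Sertoli cells, 0.299 in ovaries and 0.198 in testes. The procedure was tested on simulated data. No RNA was sequenced, and the number of arrays limits the precision. Replicate arrays differed by at least 3.69 at their most divergent probe set, so none were duplicates.

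Every member is named by all its probe sets. From each pathway list the called genes (up to 4) and up to 2 others of highest mean could be named, and not all of the latter are. The 14 lists had 155 entries, of which 140 were measured. Members, lists and rules were chosen with earlier results of these data known. Alternatives were other normalizations, centring, filters on dim probe sets, moderation, group weights, fewer arrays, a replicate block, a threshold of 0.05, the mean of a gene's probe sets and the omission of each array. Replicate numbers did not pair the samples.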

Additional observations from a re-analysis of the deposited data

Results flagged for a closer look

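For 2 probe sets the XY and XX arrays did not overlap in the sorted cells and did not overlap, in the opposite order, in the gonads. Lhx9 (2) was lower in Sertoli cells, at -2.49, and higher in testes than in ovaries, at 0.68. The difference between the comparisons was -3.17 (unadjusted p = 0.0435, adjusted p = 0.417), so it was not called. Cbx2 (1) was higher in Sertoli cells, at 0.61, and lower in testes, at -0.29, and the difference of 0.90 was not called (unadjusted p = 0.0309, adjusted p = 0.367). Groups of 2 arrays are too small to look for single outlying samples.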

How the results depend on the processing

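The call of Lhx9 (1) in Sertoli minus pre-granulosa held in 16 of 18 alternatives other than the threshold, with differences from -4.57 to -4.30 and adjusted p from 5.74e-04 to 0.0614, and was lost with no moderation and with only the 4 sorted arrays, where 0 member probe sets were called. With no moderation 3 were called in Sertoli minus testis and 0 in pre-granulosa minus ovary, which also had 0 with only the arrays compared. With trend and robust moderation 8 were called in Sertoli minus testis and with a weight per group 9. Shares of all probe sets called were counted for the main fit only, so none stands beside the counts under the alternatives. At an adjusted p of 0.05 the counts were 3 between the sorted types, 14 in Sertoli minus testis, 7 in pre-granulosa minus ovary and 1 in the difference of differences. Over the omission of each array they ranged from 1 to 3, from 0 to 11 and from 0 to 5, and stayed at 0 for testis minus ovary and for the difference. The 0 came from omitting either testis array in Sertoli minus testis (1 without Sertoli replicate 1, 3 without Sertoli replicate 2 or either ovary array, 11 without either pre-granulosa array), and either testis or ovary array in pre-granulosa minus ovary (5 without pre-granulosa replicate 2). Omitting an array of a group outside a comparison leaves the difference as it was and changes only the shared spread and its degrees of freedom. Without either pre-granulosa array the Sertoli minus testis SE of Lhx9 (2), at -5.32, went from 0.89 to 0.17. That of Lhx9 (3), at -4.44, went from 1.04 to 1.11. The causes of the changes were not tested further.

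Of the member differences that were called, 0 turned sign in their own probe set. Among differences not called in the main fit, Zfpm2 (2) turned to -0.08 in Sertoli minus testis on values as deposited. In pre-granulosa minus ovary, Zfpm2 (1) turned to 0.24 without pre-granulosa replicate 1, against -1.25 with all arrays and -2.74 without replicate 2. Lhx9 (4) turned to 0.10 in that comparison without replicate 2 (-0.81 without replicate 1). On the mean of all probe sets Gata4 turned to -0.65 against testes, -0.42 against ovaries and -0.24 in the difference of differences, and Cbx2 to 0.04 against ovaries, because their probe sets differ. A further 64 sign changes were in differences within 1 SE of 0. With the replicate block 1, 0, 4, 2 and 0 member probe sets were called in the 5 comparisons, again with no share of all probe sets counted. Same-numbered arrays correlated in their deviations between -0.156 and 0.0493, so the numbers mark no pairs. The fit with only the arrays compared is the same as the main one for the difference and was not repeated.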

Other observations

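Among the marker lists, coelomic epithelium genes moved both ways between sorted cells and organs. Of 8 measured, 1 was higher and 3 were lower in Sertoli cells than in testes (limma, adjusted p at most 0.01). In pre-granulosa cells 0 were higher and 3 lower than in ovaries. Of all genes 2.47% were called higher and 4.4% lower against testes, and 1.29% and 4.11% against ovaries. Upk3b, a uroplakin of mesothelium, was lower in Sertoli cells than in testes (-3.25 ± 0.14) and in pre-granulosa cells than in ovaries (-4.57 ± 0.14), whereas the keratin Krt18 was higher in Sertoli cells than in testes (1.96 ± 0.25). Cdh16, a cadherin of kidney and duct epithelium, was higher in both sorted types than in the organs (2.62 ± 0.23 and 1.54 ± 0.23). These genes were chosen after their values were seen.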
